A study of Homo sapiens with 12 samples.

Results

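Replicate 3 is the name given here to the 4 arrays whose titles end in rep3, 1 from each of 4 groups of human lung cancer cells, and they were set against the 8 arrays titled rep1 or rep2, out of 12 arrays in all. Arrays were assigned by title alone, but the comparison was chosen with earlier results of these data known. Affymetrix whole-transcript arrays measured total RNA of A549, a lung adenocarcinoma line, and HTB56, also known as Calu-6, both established. Each line was measured as the starting culture (0 rounds, groups A0R and H0R) and as cells recovered after 3 rounds of selection for tumour nodules in mouse lungs (A3R and H3R), with 3 arrays in each group. All groups were untreated with respect to 5-azacytidine, and the labels name no engineered allele. The labels do not say whether the replicate numbers mark separate cultures, extractions, labellings or scans, so these cannot be told apart, and a p-value here reflects no more than the scatter among these arrays, which may be technical. All values are log2 RMA signals, a probe-set summary normalized between arrays, and a difference is the replicate 3 value minus the mean of replicates 1 and 2 within a group, averaged over the groups. A gene was called where limma's adjusted p (Benjamini-Hochberg over 16922 genes) lay below 0.05.

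A growing cell spends much of its transcription on ribosomes, mitochondrial enzymes and the small RNAs that process and modify ribosomal and spliceosomal RNA. C/D box and H/ACA box small nucleolar RNAs (SNORD, SNORA) and their Cajal body relatives (SCARNA) guide methylation and pseudouridylation, and many of them are cut from introns of genes that are themselves part of the translation machinery. Other transcripts, such as those of metallothioneins, TXNIP, immediate early genes and mitotic regulators, follow metal, glucose, serum and growth state, which can differ between cultures of 1 line. The comparison asks which of these follow the shared replicate number whatever the line and selection.

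Array medians lay between 5.546 and 5.667. The signals of the replicate 3 array had the smallest interquartile range in each group, at 3.954 in A0R, 3.866 in A3R, 4.038 in H0R and 3.978 in H3R, against 3.956 to 4.141 on the other 8 arrays. In A0R the gap was slight, as replicate 2 of that group was at 3.961. The narrower spread of replicate 3 moves with every result below, and its part in them was not tested. A0R replicate 2 stood apart from the other A549 arrays: over 37 genes that are bright in HTB56 and dim in A549, a list widened after the data were seen, its median was 0.384 above the A549 median, and the other 5 A549 arrays lay between -0.0912 and -0.0092. The epithelial keratin KRT18 was at 13.51 ± 0.079 in A549 and 12.66 ± 0.066 in HTB56, and CDH1, the E-cadherin of epithelial junctions, at 9.10 ± 0.51 and 4.53 ± 0.19 (SD, n = 6), so that this junction marker was low in HTB56. Summed levels of 3 marker lists overlapped between replicate 3 and the rest, with 8.861 to 11.34 against 8.688 to 11.65 for fibroblasts, 9.225 to 9.719 against 9.127 to 9.846 for endothelium, and 9.837 to 10.18 against 9.835 to 10.37 for leukocytes. Levels of the groups differ, which widens these ranges. Within groups the median replicate 3 difference was 0.12 over 11 fibroblast, 0.09 over 12 endothelial and 0.10 over 17 leukocyte markers, above 0 in all 4 groups, with 9, 10 and 14 members above 0. These lists are dim, with median levels of 5.645, 4.925 and 4.741, and all genes of the dimmest 2 quintiles had median differences of 0.07 and 0.08. Under cyclic loess the 3 marker medians were 0.066, 0.030 and 0.025. The brightest of each list, COL6A3 at 7.882, ENG at 7.309 and CD68 at 8.975, were lower in replicate 3 (-0.59, -0.17 and -0.31), and among them CD68 passed the test. Of these markers, the collagen COL5A1 (0.36 ± 0.08) and LUM, lumican (0.47 ± 0.13), were called higher in replicate 3 and CD68, a lysosomal protein of macrophages, lower (-0.31 ± 0.07). The LUM call was lost without the replicate 3 array of H0R (adjusted p = 0.139) or H3R (0.095) or without H0R replicate 2 (0.050). It was also lost under cyclic loess (limma's adjusted p = 0.0801). The part of other cells in the results was not tested.

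Replicate 3 differed from replicates 1 and 2 at 3222 of 16922 genes, which is 19% of those tested. Of these, 1353 were higher (8%) and 1869 lower (11%), and 5690 genes (33.6%) had an unadjusted p below 0.05. Median centring of the arrays turned this split to 1872 higher and 1684 lower. Large differences lay mostly on the low side, with 261 called genes (1.54%) lower by at least 0.5 and 47 (0.278%) higher by at least 0.5. The median difference over all genes was 0.02. The replicate 3 array lay below both others of its group in all 4 groups at 2098 genes (12.4%) and above both in all 4 at 1671 genes (9.87%). Of 9858 probe sets without a symbol, 1817 (18.4%) were called. Leaving out 1 replicate 3 array lowered the count of calls to 2072 (A0R), 1871 (A3R), 2010 (H0R) and 1959 (H3R), and leaving out A0R replicate 2 gave 3337.

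**Figure D1:**
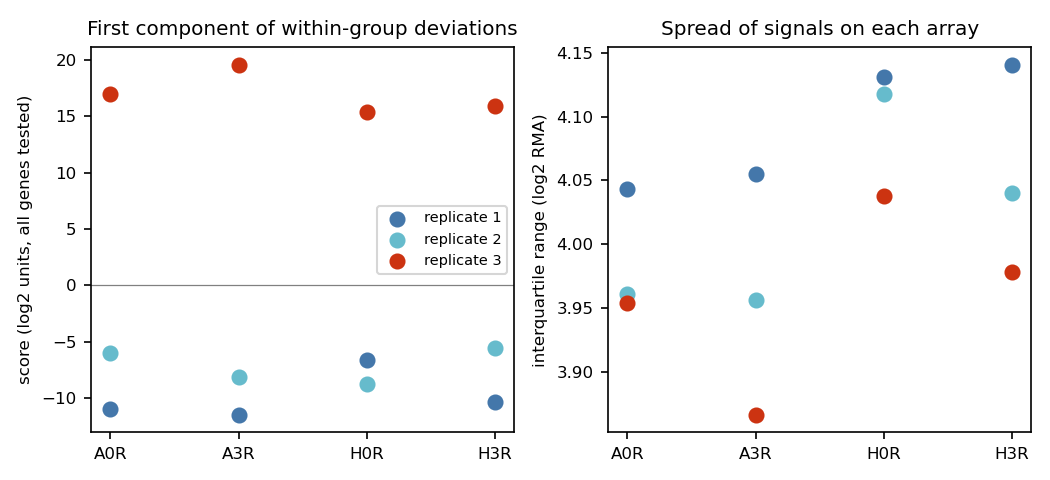
Left, score of each of the 12 arrays on the first principal component of the deviations from the group mean, by group and coloured by replicate number; right, the interquartile range of log2 RMA signals on the same arrays. The 4 replicate 3 arrays score between 15.38 and 19.59, all 8 others between -11.49 and -5.566, and replicate 3 has the smallest interquartile range in each group.

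The first component of the within-group deviations held 38.9% of their variance and the second 14.9%. On the first, replicate 3 scored 16.96 in A0R, 19.59 in A3R, 15.38 in H0R and 15.89 in H3R, and the other 8 arrays lay between -11.49 and -5.566 without overlap. Across genes, deviations of 2 replicate 3 arrays from different groups correlated at 0.416 to 0.55, against -0.417 to -0.156 between a replicate 3 array and a replicate 1 or 2 array of another group. Deviations within a group sum to 0. The negative values and the opposite scores therefore follow from the pairing of replicate 3 and are no separate result. Arrays of the other numbers also correlated across groups, at 0.214 to 0.398 for 2 replicate 1 arrays and 0.161 to 0.273 for 2 replicate 2 arrays. A shift shared by the replicate 3 arrays puts part of its opposite into all the others, so part of these positive values follows from it too. Between replicates 1 and 2 of different groups the range was -0.0595 to 0.205, which overlapped that of replicate 2. Replicate 1 pairs lay above that range, but narrowly, with a lowest value of 0.214 against 0.205, and for replicate 2 the ranges do not separate. Pairing by number outside replicate 3 was thus slight at most. Between replicates 2 and 1, limma called 0 of 16922 genes, although 2193 (13%) had an unadjusted p below 0.05, and 0 were called under each alternative tried. In simulated data of this size that test recovered 76% of genes changed by 0.5 and 97% of genes changed by 1.

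Both lines and both selection states carried the difference. On their own 6 arrays, A549 gave 418 calls and HTB56 625, and the 178 genes called in both moved the same way in all 178 cases. These made up 42.6% of the A549 calls and 28.5% of the HTB56 calls. Of the A549 calls, 392 (93.8%) had the same sign in HTB56, where 71.4% of all genes did. Across the 16922 genes the differences of the lines, which share no array, correlated at Pearson 0.595 and Spearman 0.566. The unselected arrays alone gave 141 calls and the selected ones 571, with 93 in common, all in the same direction. The difference itself did not pass limma's test between lines at any gene (0 called, 1065 or 6.29% at an unadjusted p below 0.05), nor between selection states (0 called, 834 or 4.93%). Other settings called 2 genes (trend and robust eBayes) or 3 genes (array weights) between the lines. At this size the line test recovered 15% of simulated differences of 0.5 and 76% of those of 1, so smaller differences between lines were mostly not detectable.

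**Figure D2:**
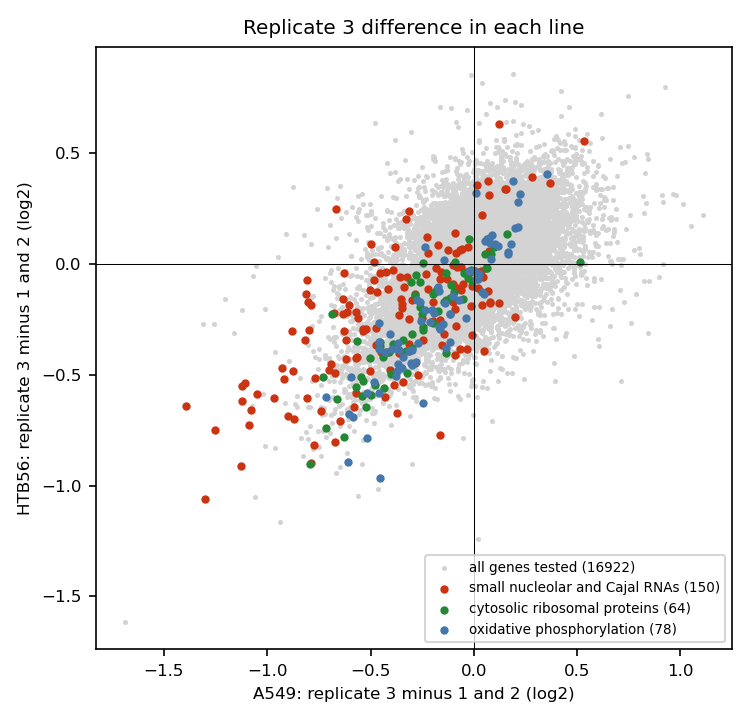
Each point is a gene; the x axis gives its replicate 3 difference (log2) in A549 (mean of A0R and A3R) and the y axis that in HTB56 (mean of H0R and H3R), with all 16922 genes in grey and 3 gene lists in colour. The coloured members lie mostly in the lower left, where replicate 3 was lower in both lines.

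Loci of small structured RNAs held the largest falls. These loci were picked after their values had been seen. RPPH1, the RNA subunit of ribonuclease P, which trims transfer RNA precursors, read 9.34, 9.13, 9.34 and 10.01 on the replicate 3 arrays of A0R, A3R, H0R and H3R. The other 8 arrays lay between 10.80 and 11.52 with a median of 11.04. All 4 replicate 3 arrays were below all 8 others, and RPPH1 was lower by a difference of -1.65 ± 0.09 (SE; 3.14-fold, adjusted p = 3.0e-06). RMRP, the related RNA of ribonuclease MRP, was lower by less, at -0.55 ± 0.09 (adjusted p = 0.0023). SCARNA12, a guide RNA of Cajal bodies, read 7.86, 7.92, 8.76 and 9.47 in replicate 3, against 8.82 to 10.48 (median 9.40). Its ranges overlapped across groups because HTB56 was brighter, but in all 4 groups replicate 3 was below both others, with a difference of -1.02 ± 0.08 (2.03-fold, adjusted p = 2.4e-05). SNORD38B, a C/D box guide, read 4.21, 3.77, 4.67 and 5.28, against 4.75 to 6.35 (median 5.76), and was lower by -1.18 ± 0.15 (adjusted p = 0.00039).

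Most called loci of this family fell. Of 150 small nucleolar and Cajal body RNA loci tested, 73 fell (48.7%, against 11% of all genes) and 2 rose. Their median difference was -0.26 against 0.02 for all genes, and 135 were below 0. By class, 45 of 78 SNORD loci fell and 1 rose (median -0.39), 25 of 58 SNORA loci fell and 1 rose (median -0.23), and 4 of 15 SCARNA loci fell (median -0.21). The median over the 150 loci was -0.38 in A0R, -0.34 in A3R, -0.10 in H0R and -0.36 in H3R, so the H0R shift was the smallest. Without the replicate 3 array of A0R, 47 of the 150 fell, without that of A3R or H3R 49, and without that of H0R 72. The SNORD falls came to 29, 28, 44 and 32 and the SNORA falls to 15, 17, 24 and 14 without the replicate 3 array of A0R, A3R, H0R and H3R. SNORD45B fell by 1.41 and 1.38 in A0R and A3R and by 0.49 and 0.79 in H0R and H3R, and limma's test between the lines gave an adjusted p of 0.29. SNORD52 (-0.91 ± 0.10) and SNORD12C (-0.87 ± 0.12) were below both other arrays in all 4 groups. Of the SNORD116 cluster, whose copies are nearly identical and may share signal, 6 of 13 fell and SNORD116-1 rose (0.54 ± 0.14). The SNORD116-1 call was lost without the replicate 3 array of A3R (adjusted p = 0.075) or H3R (0.059). A probe set on such a locus also reads any precursor or host intron over the same bases. Of the 2 host genes tested, both fell, and SNHG17 read 8.83, 8.68, 8.46 and 8.70 in replicate 3 against 8.98 to 9.86, with no overlap and a difference of -0.90 ± 0.10 (adjusted p = 0.00016).

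Among 19 spliceosomal and other small RNAs, 6 fell (31.6%, against 11% of all genes) and 3 rose (15.8%, against 8%), at a median of -0.22. RNU5D-1, a U5 spliceosomal RNA with near-identical copies, fell by 1.05 ± 0.18 (adjusted p = 0.0020). RNU12, the U12 RNA of the minor spliceosome, moved the other way. It read 6.28, 6.73, 6.53 and 6.67 in replicate 3, against 5.84 to 6.17 (median 6.02), with no overlap, and rose by 0.53 ± 0.08 (adjusted p = 0.0014). The direction was thus not common to all small RNA loci, and of the 3 rises 1 was called without the replicate 3 array of A0R, A3R or H0R.

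Calls at microRNA loci went both ways. A microRNA is cut from a hairpin, and its seed, bases 2 to 8, pairs with target messages; the array probes read the hairpin locus and not the mature strand. Of 106 microRNA loci tested, 13 rose and 6 fell (median 0.05), and 17.9% called lies near the 19% of all genes. Cyclic loess gave 10 rises and 9 falls at a median of -0.02, so the lean to rises depended on the scaling. With hosts and other listed precursors, 14 of 121 rose and 7 fell (10 and 10 under cyclic loess), and without the replicate 3 array of A0R, A3R or H0R 9, 8 or 6 rose. The 5 loci that rose and held their call without any single array are shown by 1 mature strand each, to show that these strands share no seed. Sequences are those of RefSeq on GRCh38.p14, 5′ to 3′, with the seed in capitals.
miR-296-5p: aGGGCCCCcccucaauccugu
miR-494-3p: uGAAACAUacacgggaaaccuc
miR-331-3p: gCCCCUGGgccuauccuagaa
miR-9-5p: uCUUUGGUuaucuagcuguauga
miR-218-5p: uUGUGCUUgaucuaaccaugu
MIR296 (chr20:58817661-58817681, minus strand, for the strand shown) rose by 0.49 ± 0.10 (adjusted p = 0.0064), MIR494 (chr14:101029681-101029702, plus) by 0.49 ± 0.10 (0.0061) and MIR331 (chr12:95308480-95308500, plus) by 0.49 ± 0.09 (0.0037). MIR9-3 (chr15:89368032-89368054, plus) rose by 0.47 ± 0.10 (0.0070) and MIR218-2 (chr5:168768211-168768231, minus) by 0.46 ± 0.09 (0.0047). On the MIR331 locus replicate 3 read 4.19, 4.30, 3.81 and 4.09, above all 8 others, which lay between 3.46 and 3.77. These levels are close to the filter on dim probe sets, whose mean was 3.48. MIR9-3 was dimmer: replicate 3 read 3.475 to 4.325, and the other 8 arrays 2.967 to 3.704 with a median of 3.275. That median is under the mean filter level, so MIR9-3 may have passed the filter through its replicate 3 arrays, and its rise carries little weight.

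Loci of the let-7 family, whose mature strands repress growth-promoting messages, were called in both directions. The strands are shown because they share a seed. As the share of microRNA loci called was near that of all genes, these calls are not read as a result about the family.
let-7f-5p: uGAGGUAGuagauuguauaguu
let-7a-5p: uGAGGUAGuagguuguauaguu
The first strand comes from both MIRLET7F1 (chr9:94176353-94176374, plus) and MIRLET7F2 (chrX:53557246-53557267, minus). MIRLET7F1 was called lower (-0.44 ± 0.14, adjusted p = 0.044) and MIRLET7F2 higher (0.33 ± 0.11, adjusted p = 0.048), while MIRLET7A2 (chr11:122146568-122146589, minus) was called lower (-0.40 ± 0.10, adjusted p = 0.015). Leaving out single arrays ended the call of MIRLET7F1 in 7 of 12 cases, of MIRLET7F2 in 8 and of MIRLET7A2 in 2, with adjusted p up to 0.169, 0.235 and 0.0729. Median centring also ended the call of MIRLET7F1. That of MIRLET7F2 was lost under cyclic loess (limma's adjusted p = 0.129) and without the filter on dim probe sets. The median of MIRLET7F2 on replicates 1 and 2 was 3.439, near the mean filter level of 3.48.

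Messages of the cytosolic ribosome were lower in replicate 3. Of 64 ribosomal protein genes, 32 fell (50%, against 11% of all genes) and 0 rose. Their median was -0.23 against 0.02 for all genes, and 38 were below both other arrays in all 4 groups. Both subunits contributed, with 21 of 42 RPL genes (median -0.23) and 11 of 22 RPS genes (median -0.22). RPS28, a protein of the small subunit, read 11.03, 10.97, 11.64 and 11.64 in replicate 3, and the other arrays lay between 11.61 and 12.59. Within each group replicate 3 was the lowest, and RPS28 fell by 0.85 ± 0.06 (1.8-fold, adjusted p = 2.4e-05). RPS27L, a p53-responsive relative of RPS27, fell by 0.73 ± 0.07. Ribosomal protein genes have processed copies elsewhere in the genome, so their probe sets may share signal. Other lists of the translation apparatus had smaller medians. Of 59 elongation and initiation factor genes, 6 rose and 10 fell (median -0.02, and 0.03 under cyclic loess). Of 34 ribosome biogenesis genes, 10 fell and 1 rose (median -0.04), with 4, 3 and 6 falls without the replicate 3 array of A0R, A3R and H0R. The shares called, 27.1% and 32.4%, were still above the 19% of all genes. Replicate 2 minus replicate 1 gave a median of -0.17 over the biogenesis genes, larger than their replicate 3 median, against -0.03 over the ribosomal protein genes. MYBBP1A, a nucleolar protein, fell by 0.60 ± 0.07 and WDR75, a factor of small subunit assembly, rose by 0.27 ± 0.06.

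RNA polymerase genes included some of the largest falls. POLR2A, the catalytic subunit of RNA polymerase II, read 8.17, 8.15, 8.81 and 8.94 in replicate 3. The other arrays read 9.07 to 9.81 with a median of 9.38, so the ranges did not overlap. The fall was 0.92 ± 0.07 (1.89-fold, adjusted p = 2.4e-05). POLR1H, a subunit of RNA polymerase I, fell by 0.80 ± 0.09 (adjusted p = 0.00022). Of 30 POLR genes, 11 fell (36.7%, against 11% of all genes) and 1 rose (median -0.12), and 7 fell without the replicate 3 array of A0R or A3R. Replicate 2 minus replicate 1 gave a median of -0.1 over the same genes.

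Respiratory chain genes were lower, with the lowest median in complex I, the entry point of NADH electrons. Of 78 genes of oxidative phosphorylation, 40 fell (51.3%, against 11% of all genes) and 4 rose (median -0.22, against 0.02 for all genes). Complex I held 23 falls among 33 genes and 1 rise (median -0.35), the ATP synthase 8 falls among 17 (median -0.20), complex IV 6 falls and 2 rises among 16 (median -0.10) and complex III 2 falls among 7 (median -0.16). The complex I medians were -0.28 in A0R, -0.32 in A3R, -0.41 in H0R and -0.31 in H3R. NDUFV2, which carries an iron-sulfur cluster of complex I, read 8.76, 8.71, 8.85 and 9.10, against 9.36 to 9.79 (median 9.46). There was no overlap, and the fall was 0.66 ± 0.06 (adjusted p = 8.1e-05). NDUFB2, an accessory subunit, read 7.89, 7.72, 7.85 and 7.58, below all 8 others (8.16 to 8.55), with a fall of 0.64 ± 0.06. NDUFB6, another accessory subunit, rose by 0.27 ± 0.06, and COX7B of complex IV rose by 0.38 ± 0.08. Of the 4 rises of the list, 2 were called without the replicate 3 array of H0R or of H3R. Mitochondrial ribosomal proteins (20 of 70 fell, 4 rose, median -0.09) and import proteins of the TIMM and TOMM families (5 of 21 fell, 1 rose, median -0.14) gave smaller medians. Replicate 2 minus replicate 1 gave medians of -0.11 and -0.10 on these 2 lists, against -0.02 for oxidative phosphorylation. Their shifts thus did not separate replicate 3 alone.

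**Figure D3:**
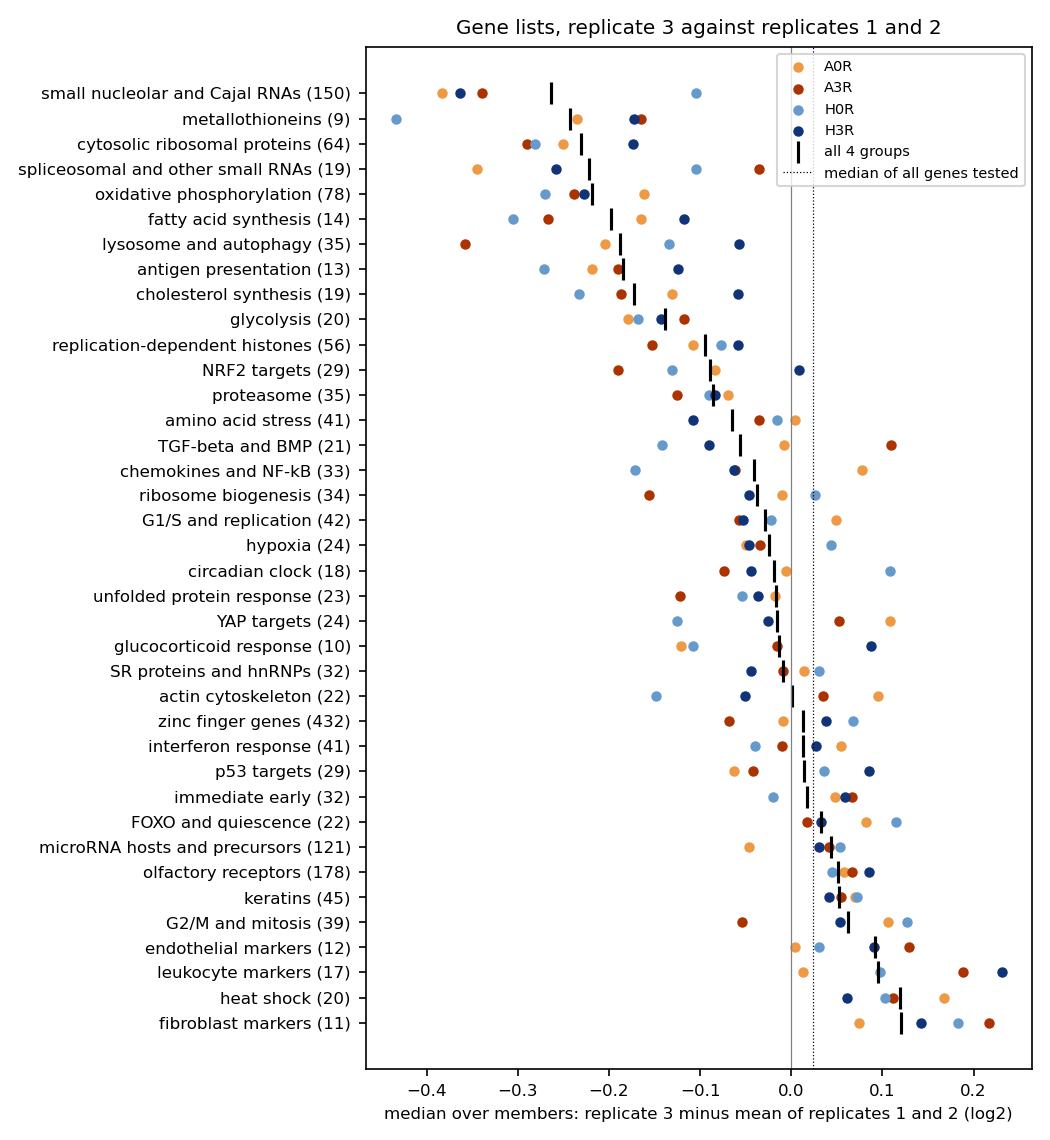
Median replicate 3 difference (log2) over the tested members of each list, as a dot for each of the 4 groups and a black tick for all groups; the number of members is in brackets and the dotted line marks the median of all genes tested (0.02). Small nucleolar RNAs, cytosolic ribosomal proteins and oxidative phosphorylation are below 0 in all 4 groups.

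Lipid synthesis genes were lower. Of 14 fatty acid synthesis genes, 6 fell (42.9%, against 11% of all genes) and 0 rose (median -0.20). FASN, the fatty acid synthase, read 8.85, 8.56, 8.78 and 8.76 in replicate 3, while the other arrays read 9.32 to 9.84 with a median of 9.44. All 4 were below all 8 others, and FASN fell by 0.75 ± 0.07 (1.68-fold, adjusted p = 8.1e-05). ACACA, acetyl-CoA carboxylase, which supplies FASN with malonyl-CoA, read 8.13, 8.04, 7.95 and 7.70, below the 8.24 to 8.84 of the rest, and fell by 0.60 ± 0.06. Of 19 cholesterol synthesis genes, 6 fell (31.6%) and 0 rose (median -0.17), and under median centring or cyclic loess 5 fell and 1 rose. In A549 mainly replicate 1 stood apart on this list. Mean deviations from the group mean for replicates 1, 2 and 3 were 0.16, -0.06 and -0.10 in A0R and 0.21, -0.08 and -0.13 in A3R. In H0R and H3R replicate 3 was at -0.17 and -0.05, below both others. SREBF2, the transcription factor that drives this pathway, fell by 0.56 ± 0.09 and PMVK, phosphomevalonate kinase, by 0.44 ± 0.06. HMGCS1, an enzyme early in the pathway and a target of SREBF2, did not pass the test (-0.02 ± 0.10, adjusted p = 0.89).

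Glycolysis and redox genes also leaned low. Of 20 glycolysis genes, 8 fell (40%, against 11% of all genes) and 0 rose (median -0.14). Without the replicate 3 array of A0R 4 of this list fell, and without that of A3R or H3R 5. ENO2, a neuronal-type enolase, fell by 0.41 ± 0.06 and HK1, hexokinase, by 0.33 ± 0.07, whereas GAPDH, of the same pathway, differed by -0.03 ± 0.06 (adjusted p = 0.77). Of 29 targets of NRF2, the oxidant-sensing transcription factor, 9 fell (31%) and 1 rose (median -0.09), and without the replicate 3 array of A3R, 5 fell. GSTP1, a glutathione transferase, read 11.40, 11.23, 10.70 and 11.07 in replicate 3 against 11.53 to 12.16 (median 11.92). These ranges did not overlap, and GSTP1 fell by 0.80 ± 0.07 (1.75-fold, adjusted p = 4.5e-05). FTL, the ferritin light chain, fell by 0.59 ± 0.06 and TKT, transketolase, by 0.52 ± 0.07. HMOX1, heme oxygenase, was lower by -1.15 and -1.25 in A0R and A3R but by -0.10 and -0.22 in H0R and H3R. Its overall call (-0.68 ± 0.20, adjusted p = 0.029) was lost without the replicate 3 array of A0R (adjusted p = 0.125) or A3R (0.145), and the difference between lines did not pass limma's test (adjusted p = 0.47).

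Metallothioneins, small proteins that bind zinc and copper and that cells induce when metal is plentiful, were lower. Of 8 tested, 3 fell (37.5%, against 11% of all genes) and 0 rose (median -0.29), and their near-identical copies may share probe signal. Without the replicate 3 array of H0R 2 fell. The list of 9 in the plot of lists also holds SLC30A1, a zinc exporter, which did not pass (-0.16 ± 0.07, adjusted p = 0.12). MT1X read 6.99, 7.70, 8.35 and 8.30 in replicate 3 against 7.47 to 9.53 (median 8.73). It was below both other arrays in all 4 groups, and it fell by 0.74 ± 0.11 (adjusted p = 0.00088). MT1G fell by 0.67 ± 0.07. MT2A (-0.47 ± 0.11, adjusted p = 0.014) differed by -0.87 in A0R and -0.01 in A3R, and its call was lost without the replicate 3 array of A0R (adjusted p = 0.069) or H0R (0.058). The 250 bases before the MT1X start are shown because metallothionein promoters are known for metal response elements; capitals mark each match of TGCNCNC, the element's core, on either strand (RefSeq, GRCh38.p14, chr16:56682220-56682469, plus strand).
MT1X promoter: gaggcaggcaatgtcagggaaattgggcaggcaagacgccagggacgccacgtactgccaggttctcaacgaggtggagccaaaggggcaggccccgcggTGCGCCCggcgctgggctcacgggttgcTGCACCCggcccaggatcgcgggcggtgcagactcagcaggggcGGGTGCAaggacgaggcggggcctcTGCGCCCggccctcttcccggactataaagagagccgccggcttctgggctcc
It holds 4 matches. Of 27305 promoter windows of the same length, 48.4% hold at least 1 and 1.7% at least 4, and a match does not show that a factor binds.

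Lysosomal, proteasomal and antigen presentation genes fell in part. Of 35 lysosome and autophagy genes, 15 fell (42.9%, against 11% of all genes) and 0 rose (median -0.19), and 8 fell without the replicate 3 array of A3R. NPC2, the lysosomal cholesterol carrier, fell by 0.80 ± 0.10 (adjusted p = 0.00035) and SQSTM1, an autophagy receptor, by 0.56 ± 0.09. Among 35 proteasome genes, 9 fell (25.7%) and 3 rose (median -0.09). This list is bright, with a median level of 10.45, and in the brightest quintile of all genes 18.2% were called lower. Replicate 2 minus replicate 1 also gave a median of -0.09 for the proteasome list, and -0.09 for the lysosome list. PSMB3, a subunit of the core particle, read 11.26, 11.22, 10.77 and 10.88 in replicate 3. The rest read 11.52 to 12.13, with no overlap, and the fall was 0.75 ± 0.07 (adjusted p = 5.4e-05). PSMB5, the chymotrypsin-like subunit, fell by 0.71 ± 0.07, but PSMD10, an assembly chaperone of the regulatory particle, rose by 0.34 ± 0.05. Of 13 antigen presentation genes, 4 fell (30.8%, median -0.18), and 2 fell without the replicate 3 array of H0R. Among the falls were B2M, the light chain of class I molecules (0.57 ± 0.08), and TAPBP, which loads their peptides (0.58 ± 0.06).

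Outside these lists the largest falls among protein-coding genes were DDT, ID1, UXT, SSNA1, PLPP2, NME2 and ANAPC15. DDT, a tautomerase related to the cytokine MIF, read 7.70, 7.28, 8.06 and 7.76 against 8.48 to 9.29, with no overlap, and fell by 1.06 ± 0.07 (2.08-fold, adjusted p = 2.4e-05); a close copy of it lies beside it in the genome. ID1, an inhibitor of basic helix-loop-helix factors and a direct target of BMP signalling, read 8.21, 7.37, 8.04 and 8.39 against 8.58 to 9.22 (median 8.84). Its ranges did not overlap and the fall was 0.86 ± 0.10 (adjusted p = 0.00019). Of 21 TGF-beta and BMP genes, 4 fell and 3 rose (median -0.06), so calls in that list went both ways; without single replicate 3 arrays 1 or 2 of them fell and 0 to 2 rose. UXT, a prefoldin-like chaperone (0.85 ± 0.07), SSNA1, a microtubule-binding protein (0.81 ± 0.07), PLPP2, a lipid phosphatase (0.81 ± 0.06), NME2, a nucleoside diphosphate kinase with a close neighbour copy (0.80 ± 0.07), and ANAPC15, a subunit of the anaphase-promoting complex (0.80 ± 0.07), fell in all 4 groups.

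**Figure D4:**
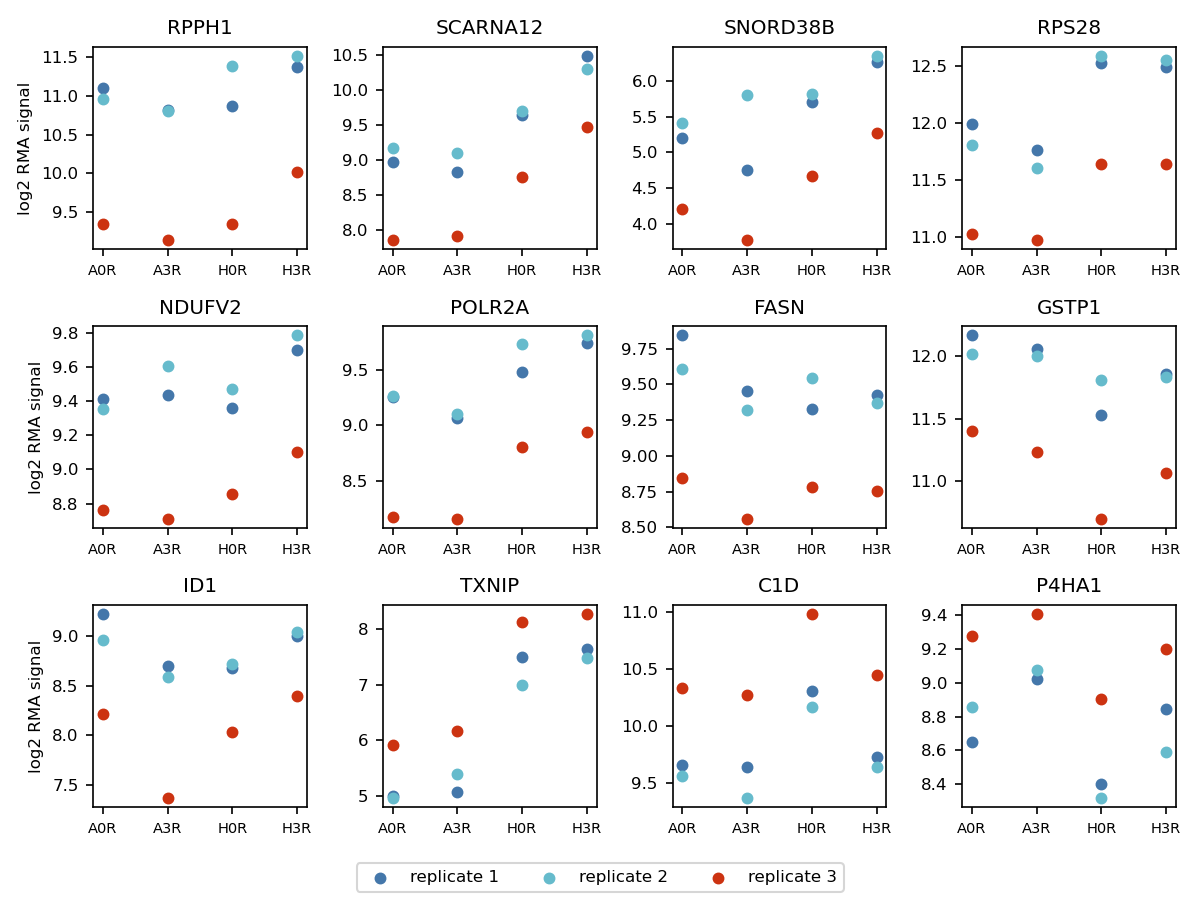
Log2 RMA signal of 12 genes on each array, by group, with replicate 3 in red and replicates 1 and 2 in blue shades; each panel has its own y axis, which does not start at 0. Replicate 3 is the lowest of its group for RPPH1 through ID1 and the highest for TXNIP, C1D and P4HA1.

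TXNIP had the largest rise. Its product binds thioredoxin and limits glucose uptake, and its transcription follows glucose-derived metabolites through carbohydrate response elements. TXNIP read 5.91, 6.16, 8.13 and 8.26 in replicate 3. The others lay between 4.96 and 5.41 in A549 and 6.99 and 7.63 in HTB56. Replicate 3 was above both others in each group without overlap within a line, and TXNIP rose by 0.86 ± 0.09 (1.82-fold, adjusted p = 0.00018). The 250 bases before its start are shown as the window of the largest rise. Capitals mark each CACGAG, a spelling of the half-site, searched on both strands (RefSeq, GRCh38.p14, chr1:145996580-145996829, minus strand).
TXNIP promoter: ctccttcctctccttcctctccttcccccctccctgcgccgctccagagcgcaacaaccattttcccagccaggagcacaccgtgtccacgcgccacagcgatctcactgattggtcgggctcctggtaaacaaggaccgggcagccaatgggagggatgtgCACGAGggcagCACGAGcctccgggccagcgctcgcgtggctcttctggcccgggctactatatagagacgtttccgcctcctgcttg
It holds 2 matches. Of the 27305 promoter windows, 5.62% hold at least 1 and 0.216% at least 2. The spelling was not chosen independently of this gene, so the shares are background and no test of TXNIP. Only this exact spelling was searched, so the shares and counts do not cover other spellings of the element. ARRDC4, a relative of TXNIP known to respond to the same metabolites, holds 0 matches of that spelling. This does not show that its window lacks the element. The ARRDC4 difference did not pass limma's test (0.10 ± 0.08, adjusted p = 0.37). The files hold no glucose measurement.

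C1D, a cofactor of the nuclear RNA exosome, which trims ribosomal and small nucleolar RNA precursors, was the next rise. It read 10.33, 10.27, 10.98 and 10.45 in replicate 3 against 9.36 to 10.31 (median 9.65). The replicate 3 array was above both others in all 4 groups, with nearly equal differences of 0.72, 0.77, 0.75 and 0.77 in A0R, A3R, H0R and H3R, and the rise was 0.75 ± 0.07 (1.68-fold, adjusted p = 4.5e-05). ELL2, a factor of transcription elongation (0.62 ± 0.13, adjusted p = 0.0064), and DRAP1, a corepressor at core promoters (0.60 ± 0.09, adjusted p = 0.00087), also rose. Other leading rises were AOC3, an amine oxidase (0.67 ± 0.10), KLHL4, a kelch protein (0.66 ± 0.10), GALNT16, a glycosyltransferase (0.64 ± 0.09), ITGB6, an integrin subunit of epithelium (0.64 ± 0.12), HCAR2, a niacin receptor (0.64 ± 0.13), IL1F10, a cytokine (0.64 ± 0.12), and CSH2, a placental lactogen with near-identical copies (0.63 ± 0.13). Some of these are dim. On the other arrays IL1F10 lay between 3.68 and 4.21, HCAR2 between 4.29 and 4.82, GALNT16 between 4.76 and 4.99 and ITGB6 between 3.91 and 5.42. The mean filter level was 3.48, and all genes of the dimmest 2 quintiles had median differences of 0.07 and 0.08. ITGB6 rose by 1.04 and 0.98 in A0R and A3R and by 0.33 and 0.21 in H0R and H3R, and limma's test between lines gave an adjusted p of 0.18. TMEM47 was called (0.61 ± 0.14), but not without the replicate 3 array of A0R (adjusted p = 0.060) or A3R (0.051).

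Cell cycle genes moved both ways. The share called was 30.8% for G2/M and mitosis, 26.2% for G1/S and replication and 28.6% for histones, against 19% of all genes. Of 39 genes of G2/M and mitosis, 9 rose and 3 fell (median 0.06), with group medians of 0.11 in A0R, -0.05 in A3R, 0.13 in H0R and 0.05 in H3R. Without single replicate 3 arrays 4 (A0R), 8 (A3R), 3 (H0R) and 3 (H3R) of them rose, and without that of H0R 5 fell, so that falls outnumbered rises. DLGAP5, a spindle protein, rose by 0.41 ± 0.07 and CCNB2, a mitotic cyclin, by 0.34 ± 0.07, while UBE2C, the ubiquitin donor of the anaphase-promoting complex, fell by 0.49 ± 0.06. MKI67, the proliferation marker, did not pass (-0.21 ± 0.08, adjusted p = 0.086). Of 42 genes of G1/S and replication, 8 fell and 3 rose (median -0.03), with POLE, a replicative DNA polymerase, and CLSPN, a replication checkpoint adaptor, falling by 0.62 ± 0.07 and 0.45 ± 0.07 and CCNE2, a G1 cyclin, rising by 0.46 ± 0.09; 1 of this list rose without the replicate 3 array of A0R, H0R or H3R. Replicate 2 minus replicate 1 gave medians of -0.13 over the G1/S list and -0.10 over the G2/M list, both larger than the replicate 3 medians. Of 56 replication-dependent histone genes, 16 fell and 0 rose (median -0.09), and 9 to 12 fell without single replicate 3 arrays. H2AC25 fell by 0.64 ± 0.09 and H4C1 by 0.56 ± 0.08; histone genes are close copies of each other.

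Most stress lists held calls in both directions. Of 20 heat shock genes, 5 rose and 2 fell (median 0.12), with HSPA4L rising by 0.38 ± 0.07 and HSPB1, a small chaperone, falling by 0.40 ± 0.06, and 1 or 2 rose without the replicate 3 array of A0R or H0R. Of 24 hypoxia genes, 4 fell and 3 rose (median -0.02). HILPDA, a lipid droplet protein, fell by 0.68 ± 0.10 and ADM, adrenomedullin, by 0.42 ± 0.09, whereas P4HA1, a collagen prolyl hydroxylase, rose by 0.48 ± 0.07 and EGLN3, an oxygen sensor, by 0.41 ± 0.07. VEGFA (-0.09 ± 0.09, adjusted p = 0.50) and PDK1 (-0.11 ± 0.08, adjusted p = 0.38) did not pass. Of 29 p53 targets, 4 rose and 2 fell (median 0.01), with BBC3, a pro-apoptotic protein, rising by 0.42 ± 0.09 and RRM2B, a nucleotide reductase subunit, by 0.38 ± 0.06, while CDKN1A did not pass (-0.09 ± 0.09, adjusted p = 0.53). Of 22 FOXO and quiescence genes, TXNIP among them, 4 rose and 0 fell (median 0.03). Of 23 genes of the unfolded protein response, 5 fell and 0 rose (median -0.02), and its main chaperone HSPA5 did not pass (0.09 ± 0.05, adjusted p = 0.26). Of 41 amino acid stress genes, 5 fell and 4 rose (median -0.07); DDIT4, an inhibitor of mTOR signalling, fell by 0.51 ± 0.06, and ASNS was at 0.02 ± 0.08 (adjusted p = 0.92). The share called was 20.7% of p53 targets, 18.2% of FOXO genes, 21.7% of unfolded protein genes and 22% of amino acid stress genes. These lie near the 19% of all genes and are not read as results about those lists. For heat shock and hypoxia genes the share was 35% and 29.2%. Single replicate 3 arrays decided part of these short counts. Without that of A0R, 2 p53 targets, 2 FOXO genes and 1 amino acid stress gene rose, and without that of H0R 2, 2 and 2. The falls of the unfolded protein response came to 1 without the H0R array and 2 without any other replicate 3 array.

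The share of calls differed with signal level and gene length. By quintile of mean level from dim to bright, 1%, 2.6%, 11.8%, 21.6% and 18.2% of genes were called lower, and 6.77%, 8.01%, 6.62%, 6.8% and 11.8% higher. The median difference was 0.07 and 0.08 in the dimmest 2 quintiles, -0.01 in the middle, and -0.06 and -0.01 in the brightest 2. Protein-coding genes were also split into 4 equal bins by level and 4 by genomic span. In the brightest bin (8.36 and above), 272 of the 727 with a genomic span under 10.2 kb were lower (37.4%) and 34 higher, at a median of -0.14. In the next 3 bins of span the medians were -0.01, 0.04 and 0.01. Ribosomal protein and complex I genes are mostly short, and the parts of gene length and of function in their falls were not tested. The housekeeping gene ACTB was at -0.01 ± 0.06 (adjusted p = 0.93). In bulk RNA, fewer cells in a state and less RNA per cell cannot be told apart.

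**Figure D5:**
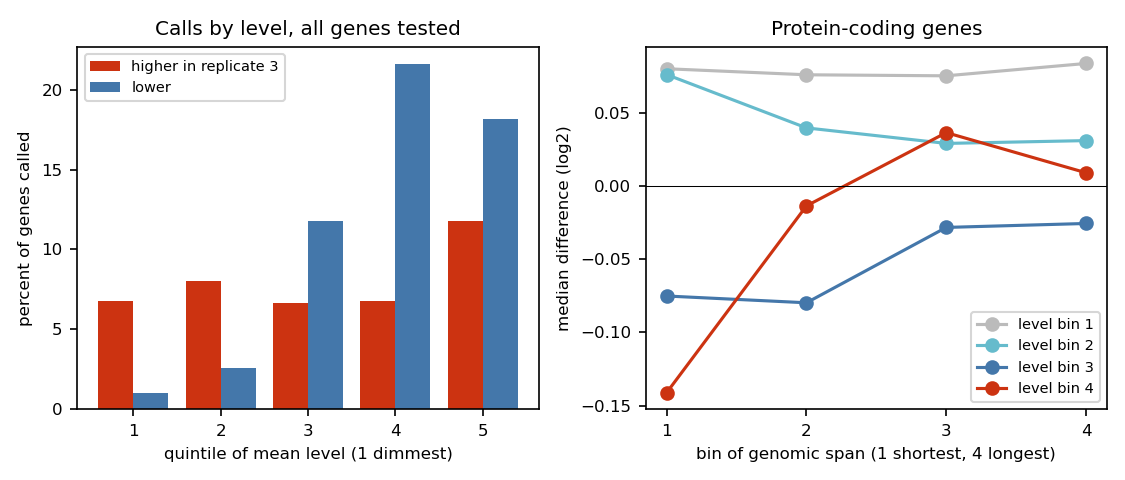
Left, percent of all genes tested that were called higher (red) or lower (blue) in replicate 3, by quintile of mean log2 level; right, median difference (log2) of protein-coding genes by bin of genomic span (4 bins of equal size over all protein-coding genes), 1 line per bin of level. Lower calls peak at 21.6% in the fourth quintile, and among the brightest genes the shortest bin has the lowest median (-0.14).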

How the data were processed

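Per the labels' protocols, a column kit yielded the total RNA and a whole-transcript workflow labelled it. The deposited log2 values of 33297 probe sets are the authors' own: the submitters' processing notes name RMA and the Affymetrix Expression Console (version not given in the sources used here). This method compresses dim signals and removes a shift common to all RNA. Scanner files were not used here. Of the probe sets, 19460 had 1 symbol in the platform annotation, 1754 several and 12083 none, and 19429 matched RefSeq (GRCh38.p14). A probe set was kept if above its array's 20th percentile on at least 3 arrays; the brightest stood for a gene.

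The software for all models was limma 3.58.1 under R 4.3.3 (lmFit, eBayes, two-sided, threshold 0.05) with 1 mean per group and a replicate 3 term; extra terms tested line and selection, and a fit with all replicate numbers gave replicate 2 against 1. On simulated data, 79% of changes of 0.5 and 98% of changes of 1 were recovered for replicate 3. The deviations quoted in the report are the check of whether numbers pair samples. The members, gene lists and tests were chosen with earlier results of these data known. Named by rule were the 12 largest called rises and falls outside the other arrays in all 4 groups (without non-coding and similar symbols), up to 2 called members per list and direction, and check genes. Small RNA loci and all subgroups by symbol were chosen after their values were seen. Y-linked genes and 1 X-linked RNA were left out. Tables and figures used Python 3.11.15, pandas 2.3.3 and matplotlib 3.10.9. Alternatives are in the closing section; the array number limits precision.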

Additional observations from a re-analysis of the deposited data

Results flagged for a closer look

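Some values of 1 group stood apart from the other 3 in replicate 3 difference, by the gap to the nearest group over the whole range. Chance flags about 1 in 20 groups, and 9 of 158 genes and 2 of 40 lists were flagged, so single cases carry little weight. H4C1 was at -0.3588 in H3R, against -0.6408 to -0.5934 in the other groups. MT1G was at -0.9024 in H0R, NDUFB2 at -0.5264 and PSMB3 at -0.6349 in A0R, and PLPP2 at -0.8834 and TXNIP at 0.7063 in H3R. SNORD38B was at -1.507, UBE2C at -0.6432 and WDR75 at 0.1766 in A3R. The median of the small nucleolar and Cajal RNA list was -0.1049 in H0R, against -0.3835 to -0.3395 elsewhere, and that of the hypoxia list 0.04382 in H0R. On A0R replicate 2, 37 genes bright in HTB56 had a median 0.384 above the A549 median. Probe sets without a symbol, which entered no named result, gave 1817 calls among 9858.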

How the results depend on the processing

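No named gene that passed the test changed sign under the alternatives run, whereas ACTB, ASNS, CCN2, FOS, GAPDH, HMGCS1, MYC and VEGFA, which did not pass, changed sign under some. Median centring turned the split of calls to 1872 higher and 1684 lower. Of 39 list medians, 6 changed sign under median centring, 11 under cyclic loess and 17 under any setting of scaling, line or left-out replicate 3 array or A0R replicate 2, all with a median within 0.056 of 0 as reported. The 3222 calls became 1230 at a threshold of 0.01, 106 in a treat test against a fold of 1.2, 418 and 625 on A549 or HTB56 arrays alone, 141 and 571 on unselected or selected arrays alone, and 1953 and 1547 against replicate 1 or replicate 2 alone. Leaving out a group, added after seeing the data, gave 2111 (A0R), 1860 (A3R), 1756 (H0R) and 1599 (H3R), and leaving out single arrays 1871 to 3337. A fit with the replicate block of 3 levels gave 3666 calls, 3183 of them shared, with the same differences by construction; it changed no call of 158 named genes except EGR1, which gained one. Between lines, trend and robust eBayes gave 2 calls, array weights 3, and leaving out single arrays 0 to 1. The other fits of replicate 3 made 3128 to 3960 calls, of which 2675 (cyclic loess) to 3179 (mean of probe sets) are among the 3222. For named genes, 4228 values kept their side of the threshold, 927 lost and 9 gained a call, and for list medians 1226 of 1287 stayed within their spread. Scaling before RMA and slide effects could not be varied, and dim genes are limited by signal over background.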

Other observations

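Lists outside the main groups moved little. Of 432 zinc finger genes, 21 rose and 26 fell (median 0.01), or 10.9% called against 19% of all genes. Of 178 olfactory receptor genes, which are near background here, 10 rose and 0 fell (median 0.05), but cyclic loess gave 4 rises and 3 falls at a median of -0.02. Of 45 keratins 1 rose, KRT37, a call lost without the replicate 3 array of A3R (adjusted p = 0.085) or H0R (0.075). Of 554 long non-coding RNAs, 39 rose and 16 fell (median 0.07), and 20 rose and 26 fell under cyclic loess (median 0.00). Without single replicate 3 arrays 7 to 15 zinc finger genes rose and 13 to 17 fell, and 3 to 7 olfactory receptor genes rose.

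Of 41 interferon response genes, 6 fell and 3 rose (median 0.01), with PARP14 and LGALS3BP falling by 0.47 ± 0.07 and 0.49 ± 0.08. Of 33 chemokine and NF-kB genes, 3 fell and 2 rose (median -0.04), and TNFAIP2 fell by 0.44 ± 0.08, while CXCL8 did not pass limma's test (0.35 ± 0.14, adjusted p = 0.091). Of 22 actin cytoskeleton genes, 4 rose and 4 fell (median 0.00), and TLN1, which links integrins to actin, fell by 0.55 ± 0.06. Of 24 YAP targets, 2 rose and 2 fell (median -0.02), and CCN2 was at -0.02 ± 0.12. Of 32 immediate early genes, 2 rose and 2 fell (median 0.02), with EGR1 at 0.25 ± 0.08 (adjusted p = 0.057, and 0.043 with the replicate block) and FOS at -0.14 ± 0.08 (adjusted p = 0.27). Of 32 SR protein and hnRNP genes, 5 fell and 1 rose (median -0.01), and SRSF9 fell by 0.39 ± 0.06. Of 18 clock genes 1 fell, PER1, which was not called without the replicate 3 array of A0R (adjusted p = 0.117), H0R (0.059) or H3R (0.098), and of 10 glucocorticoid response genes 1 fell, also PER1, and 1 rose, SGK1 (0.31 ± 0.07). MYC was at 0.02 ± 0.10 (adjusted p = 0.91). Against 19% of all genes, 22% of interferon response, 15.2% of chemokine, 16.7% of YAP and 18.8% of SR protein list members were called. For the actin, immediate early, clock and glucocorticoid lists the share was 36.4%, 12.5%, 5.56% and 20%. Without single replicate 3 arrays the rises and falls of the chemokine, actin, YAP, immediate early and SR protein lists came to 0 to 4 each, and 0 to 3 interferon response genes rose.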
